A study of Mus musculus with 39 samples.

Results

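Dendritic cells (DC) were taken from mice immunized with ovalbumin (OVA) nanoparticles and carrying, or not carrying, transferred OT T cells, and the 2 conditions were compared at 12 h. Libraries were chosen by their labels: 2 of wild-type DC with OVA and OT cells and 2 of wild-type DC with OVA and no OT cells, which makes 4 of the 39 libraries of the series. Mice were 8 to 12 weeks old C57BL/6 animals given particles holding antigen, CpG (a Toll-like receptor 9 agonist) and a rhodamine dye under the skin of the hock. DC came from the popliteal and inguinal lymph nodes; other cells were depleted, the DC were sorted, and their polyA RNA was sequenced in bulk. The same experiment held 2 libraries of wild-type DC with OT cells and bovine serum albumin (BSA), a protein that OT cells do not recognize, and 2 libraries with OVA and OT cells from mice labelled Cd80/86 -/-, named below as labelled knockout. Nothing in the labels says how many animals gave a library, so p-values measure the spread between these libraries, which may in part be technical. The series description gives the aim as the immediate change in DC once T cells specific for their antigen meet them.

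DC take up antigen in the tissue, mature on a danger signal and move along CCR7 ligands to the lymph node, where they show peptides on MHC molecules to T cells. OT-I and OT-II are T cells with a transgenic receptor for an OVA peptide on MHC class I or class II. An activated T cell gives signals back to the DC through CD40 ligand and interferon-gamma, and natural killer (NK) cells are the other early source of interferon-gamma in the node.

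The 4 libraries held 1621784 and 1285938 counts without OT cells and 1312940 and 798777 with them, and 9355 of 24421 genes passed the filter on low counts. Levels are given in CPM (the count of a gene over the library total, times 1000000), differences as log2 of the level with OT cells over that without, with the standard error (SE) of the fit. A gene was called at an adjusted p (Benjamini-Hochberg over all genes tested, edgeR quasi-likelihood test) under 0.05. Cd74 and Flt3, which DC express, had counts in all 4 libraries. Cd74, the invariant chain of MHC class II, was at 1729 and 2831 CPM without OT cells and at 4398 and 4851 CPM with them. Flt3, the growth factor receptor of DC, was at 41.3 and 116 CPM without and at 234 and 260.4 CPM with OT cells, an adjusted p of 0.0502.

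With OT cells, 243 genes changed, 119 higher and 124 lower. These are 2.6% of the genes tested, 1.27% higher and 1.33% lower. Of the genes that fell, 25 of 124 were in the lists of T cells or of NK and cytotoxic lymphocytes and 40 in any list. Their median change was 3.92 on the log2 scale (3.80 with the 8 genes that had no count with OT cells set to 3 counts over the group). Of the genes that rose, 11 of 119 were in the lists of maturing or migratory DC and 16 in any list, and their median change was 1.91. The median of all genes tested was -0.03. The number of calls rests on single libraries: without replicate 1 of the OVA and OT group 12 genes were called and without replicate 2 of it 8, while without replicate 1 of BSA with OT cells 732 were. The near-even split rests on them too: without replicate 1 of OVA alone 31 genes were higher and 105 lower, and without replicate 1 or 2 of the knockout label 48 and 87, or 50 and 91.

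NK and cytotoxic lymphocyte genes fell in nearly the whole list. All 18 listed genes were tested, 17 fell and the median log2 difference was -4.77, beside 1.33% of all genes called lower. The gene outside the call was Serpinb9, an inhibitor of granzyme B that DC also make, at 162 and 311 CPM without and at 242 and 199 CPM with OT cells. Summed over the list, the level was 4364 and 10185 CPM without OT cells, and 643 and 337 CPM with them. The BSA libraries with OT cells had 802 and 561 CPM, and those labelled knockout 437 and 429 CPM. Within this experiment the 2 libraries without OT cells were thus the high ones. The 6 libraries with OT cells lay below both of them, whichever antigen was given. Ncr1 and Gzma, 2 genes of this list, were also below both of them in the libraries of 2 other experiments given further below. Other members were not. In non-immunized mice of the time course Nkg7 ran from 521 to 582 CPM, Il2rb from 140 to 144 CPM and Eomes from 39.5 to 49.7 CPM. These values lay between the 2 libraries of OVA alone (335 and 965, 86.3 and 226, and 25.9 and 70.8 CPM). In bulk samples fewer cells of a type and less RNA per cell cannot be told apart, so these values do not say whether NK cells were fewer among the sorted cells. Without replicate 1 or 2 of the OVA and OT group, 6 and 1 of the 17 were called.

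Nkg7 encodes a protein of cytotoxic granules. Its level was 335 and 965 CPM without OT cells and 19.0 and 1.25 CPM with them, and it fell by 5.74 on the log2 scale (SE 0.70, adjusted p = 0.00402). With OT cells and BSA it was 52.5 and 53.1 CPM, and in the libraries labelled knockout 9.17 and 12.4 CPM. No library with OT cells reached the lower of the libraries without. Ncr1, the activating receptor NKp46 that defines NK cells, was at 60.4 and 114 CPM without OT cells and at 1.52 and 0 CPM with them. It was 89.0 times lower with OT cells by total counts, with a counting interval of 24.4 to 739 (95%, exact, counting error only), and its adjusted p was 0.00347. Gzma, the protease granzyme A that is released into target cells, was at 1759.8 and 4781 CPM against 104 and 25.0 CPM and fell by 5.56 (SE 0.87, adjusted p = 0.011). Il2rb, the receptor chain shared by interleukin 2 and interleukin 15, was at 86.3 and 226 CPM against 5.33 and 0 CPM (adjusted p = 0.00402). Of these 4 genes, Ncr1 kept an adjusted p under 0.05 in every alternative run.

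**Figure D1:**
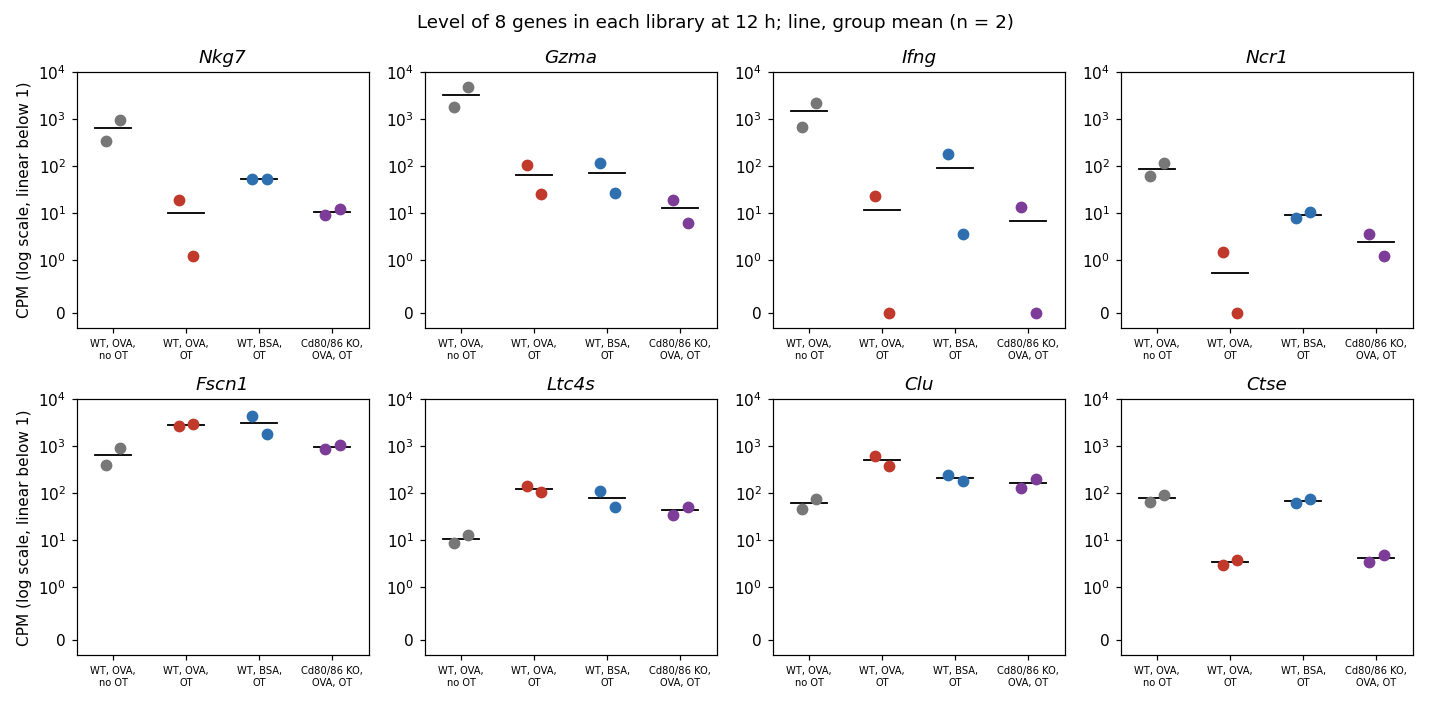
CPM of 8 genes in each of the 8 libraries at 12 h (y axis, log scale that is linear below 1), by group on the x axis, with a line at the mean of 2 libraries. Nkg7, Gzma, Ifng and Ncr1 are highest in both libraries without OT cells; Ltc4s and Clu are lowest there; Fscn1 is lower there than with OVA and OT cells in wild type; Ctse is at 3.05 to 4.97 CPM in the 4 libraries with OVA and OT cells and at 62.1 to 90.2 CPM in the other 4.

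Receptors encoded together in the NK gene complex fell as families. Of 14 tested Klra genes, the Ly49 receptors for MHC class I, 11 fell, and so did 9 of 10 other Klr receptors, a group that holds Klrd1 (CD94) and Klrk1 (NKG2D). Ly49 genes are near-identical copies, so the count of members is uncertain where reads could be split between them. Summed over the Klra family the level was 658 and 934 CPM without OT cells and 107 and 60.1 CPM with them. Of 8 Gimap genes, small GTPases of lymphocytes, 6 fell, from a summed 388 and 969 CPM to 40.4 and 15.0 CPM. These families share members with the list above and are not independent of it. Further genes among the 12 largest falls included Chil1, Cd160, Klrg1 and Cxcr6. Chil1, a chitinase-like protein of myeloid cells, was at 693 and 286 CPM without OT cells, at 14.5 and 5.01 CPM with OVA and OT cells and at 339 and 134 CPM with BSA and OT cells (adjusted p = 0.00834 against OVA alone). Its levels with BSA and OT cells overlapped those with OVA alone. Cxcr6, a chemokine receptor of T and NK cells, was at 25.9 and 26.4 CPM against 0.762 and 0 CPM (adjusted p = 0.014).

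Some T cell genes also fell in the DC libraries from mice that carried OT cells. Of 21 listed genes 15 were tested and 8 fell, beside 1.33% of all genes called lower. The median was -4.96, or -3.83 with the 4 tested members that had no count in 1 group set to 3 counts. Lck, the kinase next to the T cell receptor, was at 70.9 and 121 CPM without OT cells and at 6.09 and 3.76 CPM with them (log2 difference -4.12, SE 0.41, adjusted p = 0.0034). Lat, an adaptor of the same signalling pathway, was at 40.1 and 66.9 CPM against 1.52 and 1.25 CPM (adjusted p = 0.00451). Cd3e, Cd3g, Trat1, Bcl11b, Lef1 and Themis had no count in either library with OVA and OT cells. Lck, Lat and Zap70 are signalling genes of T cells and NK cells alike. Cd8a, which lymph node DC also express, was at 82.0 and 178 CPM without and 214 and 178 CPM with OT cells, and this member was singled out after its values were seen. Without replicate 1 or replicate 2 of the OVA and OT group, 1 of the 8 genes was called each time.

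Ifng encodes interferon-gamma. It was at 660.4 and 2220.2 CPM in the libraries without OT cells, at 22.8 and 0 CPM with OVA and OT cells, at 181 and 3.54 CPM with BSA and OT cells and at 13.4 and 0 CPM in those labelled knockout. The libraries of one group differed widely, and Ifng fell by 6.72 on the log2 scale (SE 1.52) at an adjusted p of 0.0454, with 1.98e-45 to 0.316 over the alternatives and 0.204 with DESeq2. Fasl, the death ligand of cytotoxic lymphocytes, was at 34.5 and 69.2 CPM without OT cells and had no count with OVA and OT cells, so it was at least 35.1-fold lower at a floor of 3 counts over the group (adjusted p = 0.00415). Xcl1 is a chemokine of NK and CD8 T cells that binds XCR1 on DC; it was at 92.5 and 368 CPM against 9.90 and 1.25 CPM. Ccl3, a chemokine that many activated leukocytes make, was at 133 and 101 CPM against 16.8 and 18.8 CPM (log2 difference -2.67, SE 0.35, adjusted p = 0.00529). In all, 4 of 11 tested members of the list of interferon-gamma and type 1 cytokine signals fell and none rose. Over all genes 1.33% were called lower, and the list held 21 genes.

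Genes that interferon-gamma induces were mostly lower with OVA and OT cells in wild type than with OVA alone, though few passed the test. Of 39 tested, 3 fell and none rose, beside 1.33% of all genes called lower. Of these 39 differences 33 were negative and 6 positive, with a median of -0.58. Over all genes tested 47.7% of the differences were positive. The 3 were Il12rb1, Serpina3f and Gbp6. Il12rb1, a chain of the interleukin 12 receptor that lymphocytes carry, was at 33.3 and 45.9 CPM without and at 2.28 and 2.50 CPM with OT cells. Serpina3f, a serine protease inhibitor, was at 103 and 97.2 CPM against 19.0 and 18.8 CPM. Gbp6, a guanylate-binding protein against intracellular microbes, was at 56.7 and 41.2 CPM against 17.5 and 11.3 CPM. Summed, the list stood at 27087 and 18506 CPM without OT cells and at 17376 and 17583 CPM with OVA and OT cells. Replicate 2 of OVA alone was thus near the libraries with OVA and OT cells. With BSA and OT cells the list stood at 19869 and 10168 CPM. In the libraries labelled knockout it stood at 29062 and 20813 CPM, which overlapped OVA alone. Of 38 type I interferon-stimulated genes none was called by edgeR, 5 had a positive difference and the median was -0.51. Their sum was 33212 and 19885 CPM without OT cells and 17994 and 18055 CPM with OVA and OT cells. It was 15334 and 13185 CPM with BSA and OT cells, and 26997 and 18761 CPM in the libraries labelled knockout. Ifi44, an interferon-induced gene and the member of smallest p, was at 168 and 122 CPM against 70.1 and 53.8 CPM (adjusted p = 0.0984).

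**Figure D2:**
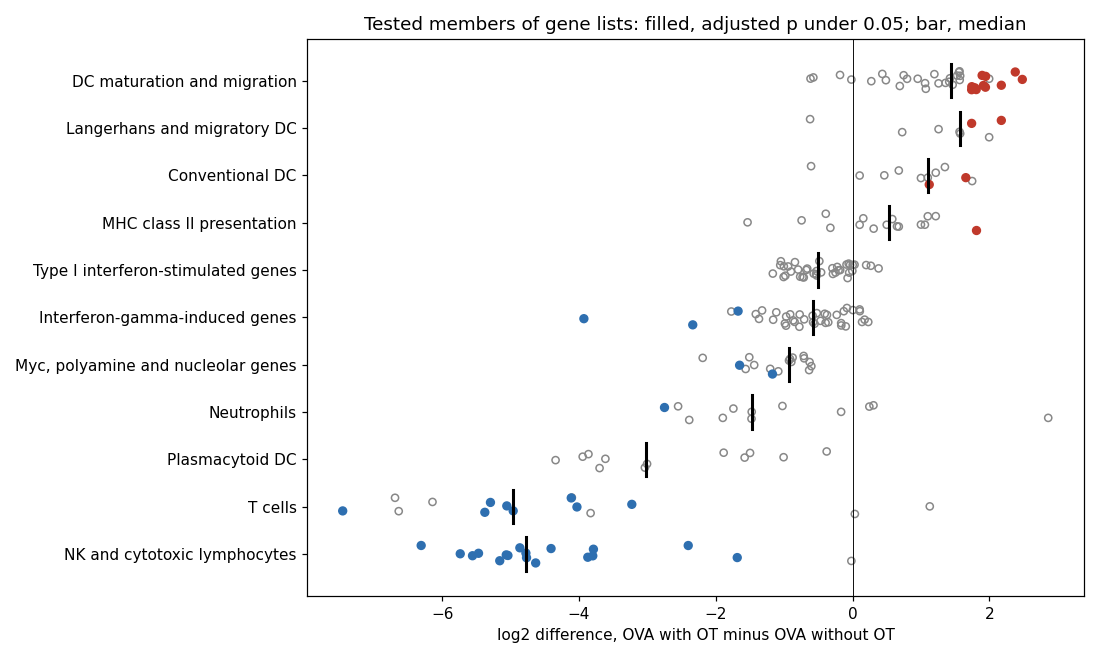
Log2 difference (x axis, OVA with OT minus OVA without OT) of each tested member of 11 gene lists; filled points were called, open points were not, and the black bar is the median. In the NK list 17 of 18 members are filled on the left; in the list of DC maturation and migration 11 of 36 are filled on the right.

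Many genes of DC maturation and migration were higher with OT cells. All 36 listed were tested, 11 rose, 32 had a positive difference and the median was 1.44, beside 1.27% of all genes called higher. Summed, the list stood at 10141 and 15105 CPM without OT cells and at 32734 and 25535 CPM with OVA and OT cells. With BSA and OT cells it stood at 41274 and 18817 CPM, and in the libraries labelled knockout at 13051 and 15502 CPM, where it overlapped the group without OT cells. The calls of this list depend on the libraries in the fit: none of the 36 was called without either library of the OVA and OT group, and 1 was without replicate 1 of OVA alone. With the libraries of the knockout label left out 1 at a time, 4 of the 36 were called each time.

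Fscn1 encodes fascin, which bundles actin in the dendrites of mature DC. It was at 406 and 901 CPM without OT cells and at 2661 and 2892 CPM with them, a rise of 2.17 on the log2 scale (SE 0.49, adjusted p = 0.0435, with 2.37e-07 to 0.245 over the alternatives). With BSA and OT cells it was at 4424 and 1852 CPM, above both libraries without OT cells, and in those labelled knockout at 856 and 1084 CPM, which overlapped them. Il4i1, an amino acid oxidase of mature DC, was at 374 and 514 CPM against 1505 and 1317 CPM (log2 difference 1.74, SE 0.36, adjusted p = 0.0314). Apol7c, an apolipoprotein L of DC that acts on the endosome membrane, was at 31.4 and 68.4 CPM against 228 and 260.4 CPM (log2 difference 2.38, SE 0.36, adjusted p = 0.0102). Lad1, a protein first known from the basement membrane, was at 14.2 and 24.9 CPM against 123 and 82.6 CPM (log2 difference 2.48, SE 0.39, adjusted p = 0.011).

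Several of the best known maturation genes pointed the same way without passing the test. Ccr7, the chemokine receptor that leads DC to the node, was at 383 and 791 CPM without and at 1986 and 1299 CPM with OT cells (log2 difference 1.56, SE 0.57, adjusted p = 0.181). Cd83, a surface marker of mature DC, was at 85.1 and 178 CPM against 448 and 219 CPM (log2 difference 1.42, SE 0.49, adjusted p = 0.156). With BSA and OT cells Ccr7 was at 2409 and 640 CPM and Cd83 at 376 and 157 CPM, which overlapped OVA alone. In the libraries labelled knockout Ccr7 was at 736 and 941 CPM, which also overlapped, and Cd83 at 228 and 231 CPM. Relb, the subunit of NF-kB that acts downstream of CD40, was at 268 and 309.5 CPM against 877 and 593 CPM (adjusted p = 0.0703), and none of the 21 genes of the NF-kB list was called by edgeR, while DESeq2 called 1. The authors' deposited table lists Relb at an adjusted p of 0.0311.

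DC instruct T cells through surface ligands and cytokines. Icosl, the ligand of the T cell receptor ICOS, rose from 67.8 and 95.7 CPM to 264 and 255 CPM (log2 difference 1.74, SE 0.35, adjusted p = 0.029) and was the edgeR call among 13 tested costimulatory and coinhibitory ligands. Cd40, the receptor for CD40 ligand, was at 562 and 411 CPM against 659.6 and 686 CPM (log2 difference 0.52, SE 0.40, adjusted p = 0.561). Cd86, a ligand of CD28, was at 99.9 and 63.0 CPM against 81.5 and 82.6 CPM (log2 difference 0.06, SE 0.44). Those values of Cd86 overlapped. Cd80, the other ligand of CD28, was at 6.17 and 12.4 CPM against 11.4 and 10.0 CPM. Il12b, a chain of interleukin 12, was at 15.4 and 36.5 CPM against 44.9 and 11.3 CPM. Il15, which sustains NK and CD8 T cells, was at 89.4 and 62.2 CPM against 172 and 134 CPM (adjusted p = 0.181), and Cd274, which encodes PD-L1, at 217 and 166 CPM against 126 and 130.2 CPM (adjusted p = 0.434).

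Of the 12 largest rises, Ltc4s is the one that a list held. Ltc4s, which makes leukotriene C4 and is the called gene among 17 tested genes of eicosanoid synthesis, was at 8.63 and 13.2 CPM without OT cells and at 145 and 108 CPM with them, a rise of 3.60 (SE 0.45, adjusted p = 0.00402). With BSA and OT cells it was at 109.8 and 51.9 CPM and in the libraries labelled knockout at 35.3 and 51.0 CPM. All 6 libraries with OT cells thus lay above both without. Clu, the extracellular chaperone clusterin, was at 47.5 and 76.2 CPM against 621 and 378 CPM (log2 difference 3.09, SE 0.38, adjusted p = 0.00402). Col27a1, a fibrillar collagen, was at 11.1 and 14.8 CPM against 101 and 114 CPM (log2 difference 3.12, SE 0.33, adjusted p = 0.00347). Sod3, the extracellular superoxide dismutase, was at 1.23 and 1.56 CPM against 25.9 and 18.8 CPM, few counts in the low group. The other 8 of the 12 largest named rises were Dkk2, Ceacam15, Mtss1l, M1ap, Kif1a, Sparc, Mdk and Rem1, with log2 differences of 2.88 to 3.77.

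The 4 genes given as markers of this contrast are shown with the 250 bases before their start, since they move as 2 opposed pairs and the stretch shows what each start carries. The sequences are from RefSeq on GRCm38.p6, 5′ to 3′ on the gene's strand, and capitals mark matches, on either strand, to the letters of 6 motifs: T-box AGGTGT, Ets AGGAAG, Runx TGTGGT, AP-1 TGANTCA, NF-kB and ISRE. The counts were made on another build, and none of these coordinates comes from the files. Nkg7 and Ifng, which were lower with OT cells, are at chr7:43436888-43437137 and chr10:118440796-118441045, both on the plus strand. Fscn1 and Ltc4s, which were higher, are at chr5:142960105-142960354 on the plus strand and at chr11:50238533-50238782 on the minus strand.
Nkg7: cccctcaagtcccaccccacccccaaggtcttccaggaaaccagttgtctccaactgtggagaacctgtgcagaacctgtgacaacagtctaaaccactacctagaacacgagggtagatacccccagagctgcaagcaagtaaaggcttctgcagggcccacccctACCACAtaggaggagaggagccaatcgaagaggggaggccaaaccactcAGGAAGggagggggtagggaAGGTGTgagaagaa
Ifng: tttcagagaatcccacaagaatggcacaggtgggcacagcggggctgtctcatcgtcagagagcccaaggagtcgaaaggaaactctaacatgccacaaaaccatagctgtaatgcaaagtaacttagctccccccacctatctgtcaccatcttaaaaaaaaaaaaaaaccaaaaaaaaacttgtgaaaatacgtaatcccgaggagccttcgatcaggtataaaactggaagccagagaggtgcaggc
Fscn1: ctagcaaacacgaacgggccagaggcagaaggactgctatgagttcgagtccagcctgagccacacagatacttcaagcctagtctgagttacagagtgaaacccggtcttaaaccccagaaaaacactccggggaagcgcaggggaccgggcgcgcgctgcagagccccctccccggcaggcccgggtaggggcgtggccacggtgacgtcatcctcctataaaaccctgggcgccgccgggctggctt
Ltc4s: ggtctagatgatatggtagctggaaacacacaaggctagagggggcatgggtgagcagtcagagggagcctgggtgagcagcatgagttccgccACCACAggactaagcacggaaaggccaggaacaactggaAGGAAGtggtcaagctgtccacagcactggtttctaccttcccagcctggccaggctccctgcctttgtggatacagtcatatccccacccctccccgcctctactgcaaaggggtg

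In the Nkg7 stretch, AGGTGT stood 14 to 9 bases before the start, AGGAAG 34 to 29 bases and ACCACA, the Runx motif on the other strand, 83 to 78 bases before it. The Ltc4s stretch held AGGAAG 117 to 112 bases and ACCACA 156 to 151 bases before the start. The other 2 stretches held none of the 6 motifs. A stretch of this kind was at hand for 88 of the 124 genes that fell, 88 of the 119 that rose and 7211 of the 9355 tested. The Runx string stood in 31.8% of the genes that fell, 11.4% of those that rose and 13.1% of those tested. The genes that fell include 11 Klra, 9 other Klr and 6 Gimap genes, and each gene was counted on its own. Copies in a family may carry alike stretches, so these shares are not those of independent genes. How far such copies raise a share was not tested. In the same order, the Ets string stood in 53.4%, 40.9% and 33.5%, and the T-box string in 11.4%, 6.82% and 11.4%, so the genes that fell held it as often as those tested. The NF-kB motif stood in 3.41%, 4.55% and 1.91%, ISRE in 6.82%, 7.95% and 3.61%, and AP-1 in 5.68%, 4.55% and 5.42%. Over all 27025 genes with such a stretch the shares were 15.9% for Runx, 32.3% for Ets, 13.6% for T-box, 1.65% for NF-kB, 3.46% for ISRE and 7.82% for AP-1. A match describes the letters and is no evidence of binding.

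Markers of other cell types differed between libraries beside these genes. Summed plasmacytoid DC markers were at 3097 and 5111 CPM without OT cells and at 1201 and 1147 CPM with OVA and OT cells, all 12 differences were negative with a median of -3.02, and none was called by edgeR, while DESeq2 called 1. Klk1, a kallikrein listed there and the member of smallest p, was at 203 and 649 CPM against 24.4 and 13.8 CPM (adjusted p = 0.054). The authors' deposited table lists Klk1 at an adjusted p of 0.027. With BSA and OT cells the list stood at 1063 and 7555 CPM, so the 2 libraries of that group differed more than the compared groups did. Neutrophil markers stood at 4514 and 21674 CPM without and at 7437 and 7663 CPM with OT cells, where replicate 2 of OVA alone is the high one. Of that list Ly6g, the neutrophil surface marker, fell (31.4 and 45.1 against 4.57 and 6.26 CPM, adjusted p = 0.024). Erythroid and platelet genes stood at 6994 and 11692 CPM and at 8375 and 18946 CPM in the compared groups, at 16706 and 129 CPM with BSA and OT cells and at 63.5 and 164 CPM in the libraries labelled knockout. The part of these cells in the calls was not tested.

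**Figure D3:**
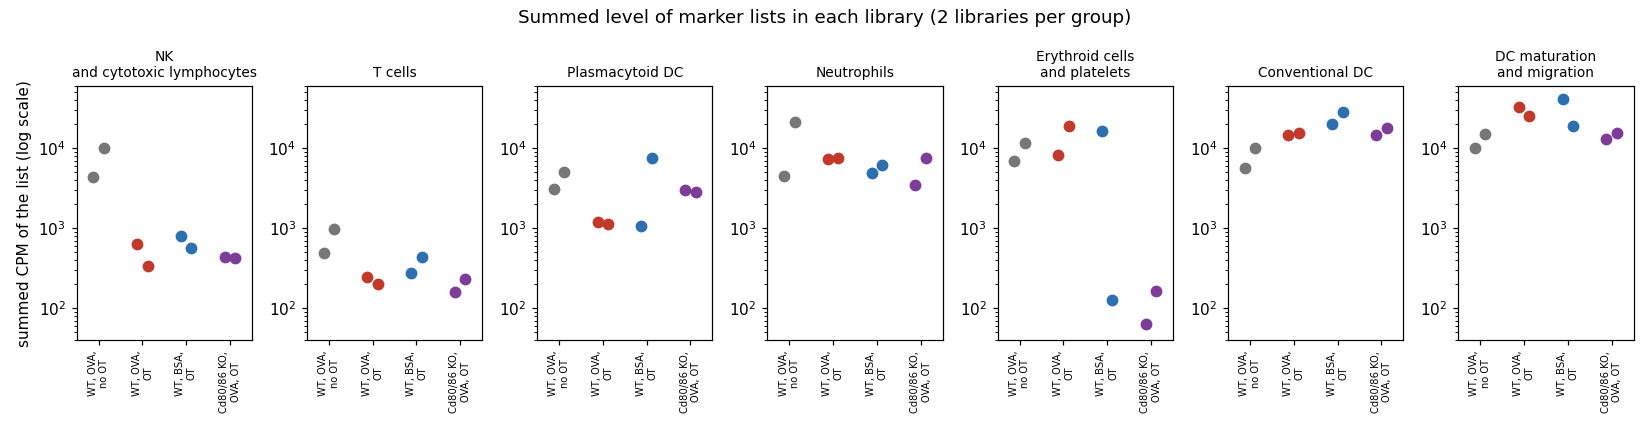
Summed CPM (y axis, log scale) of 7 gene lists in each of the 8 libraries, by group on the x axis. The NK list is at 4364 and 10185 CPM in the libraries without OT cells and at 337 to 802 CPM in the 6 others, while erythroid genes split the libraries in another way.

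Markers shared by conventional DC and those of their subsets did not move together. Summed, the shared list stood at 5670.3 and 10243 CPM without and at 14503 and 15619 CPM with OVA and OT cells. Batf3, a transcription factor of type 1 conventional DC, rose from 119 and 146 CPM to 407 and 389 CPM (log2 difference 1.65, SE 0.33, adjusted p = 0.0288). Dpp4, the peptidase CD26 on such DC, rose from 57.3 and 81.7 CPM to 145 and 141 CPM (log2 difference 1.12, SE 0.25, adjusted p = 0.0454). These were the calls among 11 tested, with a median of 1.10. The markers of type 1 conventional DC, Batf3 among them, summed to 2717 and 3153 CPM without and to 1973 and 2176 CPM with OVA and OT cells. Of their 15 differences 9 were positive and 6 negative, with a median of 0.24, so the sum and the median went opposite ways. Those of type 2 conventional DC summed to 1585 and 1243 CPM against 1018 and 853 CPM, and 13 of 15 differences were negative with a median of -0.56. Both subset sums were lower with OVA and OT cells, while 0 genes of either list were called lower. With BSA and OT cells the type 1 sum was 2616 and 3164 CPM, and in the libraries labelled knockout 3122 and 3313 CPM. The type 2 sum was 1015 and 2137 CPM and 1491 and 1488.5 CPM in that order. All of these overlapped the libraries without OT cells. Of 16 tested genes of MHC class II presentation, H2-Eb2, a class II beta chain, rose from 12.3 and 35.0 CPM to 81.5 and 72.6 CPM (adjusted p = 0.0395), and the median was 0.54. The lymphocyte sums were lower in the same libraries, and their part in these values was not tested.

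Of 17 tested Myc, polyamine and nucleolar genes 2 fell, beside 1.33% of all genes called lower. None had a positive difference and the median was -0.93. Srm, the spermidine synthase, was at 89.4 and 114 CPM without and at 31.2 and 30.0 CPM with OT cells (log2 difference -1.65, SE 0.29, adjusted p = 0.0168). Nop58, a core protein of box C/D ribonucleoproteins, was at 101 and 98.8 CPM against 48.7 and 35.1 CPM (adjusted p = 0.0485). Genes of oxidative phosphorylation had a median of 0.08 and those of glycolysis of -0.15, with no call among 39 and 16 tested by edgeR, while DESeq2 called 1 gene of glycolysis.

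The remaining lists are given with their calls, beside 1.33% of all genes called lower and 1.27% called higher. Cd79b of B cells (1 of 5 tested), Eomes of CD8 T cells (1 of 3), Marco of monocytes and macrophages (1 of 16), Hdc of mast cells and basophils (1 of 4), Tbx21 of T cell activation (1 of 14) and Pdia4 of the unfolded protein response (1 of 16) fell. Cd79b, a chain of the B cell receptor, was at 53.0 and 68.4 CPM without and at 14.5 and 15.0 CPM with OT cells. Eomes and Tbx21 are transcription factors of NK and effector T cells; Tbx21 was at 25.3 and 90.2 CPM against 4.57 and 2.50 CPM. Of 15 tested chemokine genes Ccl9 rose and Ccl3 and Xcl1 fell. Of 29 genes of the actin cytoskeleton and synapse Fscn1 rose, and Cd2 and Itgal, which lymphocytes use to adhere, fell. Batf3 was the call among 15 type 1 conventional DC genes, and Il4i1 and Fscn1 were those among 8 of Langerhans and migratory DC (median 1.57). By edgeR no gene passed among 15 tested of type 2 conventional DC, 3 of plasma cells, 3 of stroma and endothelium, 11 DC cytokines, 21 of MHC class I presentation, 23 of the cell cycle, 14 of cholesterol synthesis and 20 immediate early genes. DESeq2 called 1 of the cell cycle genes and none of the others in these 8 lists. The authors' deposited table lists Mzb1 of plasma cells at an adjusted p of 0.0421, Pecam1 of endothelium at 0.0335 and Mcm7 of the cell cycle at 0.00679.

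Whether OVA was needed was asked by setting OVA with OT cells against BSA with OT cells. This comparison shares the OVA and OT libraries with the main one. One gene of 9355 was called, which is 0.0107%, while 850 had an unadjusted p under 0.05. DESeq2 called 12. The gene was Ctse, cathepsin E, an aspartic protease of the endosome, which was also the smallest adjusted p of the main comparison and is named here after its values were seen. It was at 66.6 and 90.2 CPM with OVA alone, at 3.05 and 3.76 CPM with OVA and OT cells, at 62.1 and 76.6 CPM with BSA and OT cells and at 3.53 and 4.97 CPM in the libraries labelled knockout. Ctse fell by 4.44 (SE 0.39, adjusted p = 0.0021) against OVA alone, and fell by 4.26 (SE 0.40, adjusted p = 0.00422) against BSA with OT cells. It was low in the 4 libraries that had both OVA and OT cells and high in the 4 that lacked one of them. Without either library of the OVA and OT group no gene was called between OVA and BSA, and without replicate 1 of BSA with OT cells 200 were.

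By the edgeR fit of all 8 libraries no other gene passed between OVA and BSA with OT cells. Nkg7 differed by -2.13 between OVA and BSA with OT cells (adjusted p = 0.457), Fscn1 by -0.13 (SE 0.47, adjusted p = 0.955) and Ltc4s by 0.72 (adjusted p = 0.626). BSA with OT cells against OVA alone gave 85 calls, 37 higher and 48 lower, or 0.909% of genes (0.396% higher and 0.513% lower). With those 2 groups alone in the fit no gene was called, and without replicate 1 of OVA alone 48 were, 2 higher and 46 lower. It shares the libraries without OT cells with the main comparison, so the values are set side by side only. There Nkg7 fell by 3.61 (adjusted p = 0.0313), Gzma fell by 5.50 (adjusted p = 0.0248) and Ltc4s rose by 2.88 (adjusted p = 0.0248), and Fscn1 was 2.30 higher (adjusted p = 0.0545).

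The libraries labelled as Cd80/86 knockout held counts of both genes, Cd80 at 4.23 and 12.4 CPM and Cd86 at 37.4 and 48.5 CPM. Which part of a gene was deleted is not given in the sources used here, so these counts check nothing about the label. Against the wild type with OVA and OT cells no gene was called by edgeR and 1068 had an unadjusted p under 0.05, so 0.0% of genes. DESeq2 called 48, and edgeR called 679 when those 2 groups alone were fitted. Fscn1 differed by -1.59 there (adjusted p = 0.294) and Ltc4s by -1.64 (adjusted p = 0.222).

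Libraries of 2 other experiments, which share none with those above, were read for the same genes. OT cells are not named in the labels of those samples. In a time course, OVA particles at 12 h against CpG-only particles at 12 h (2 libraries each) gave 232 calls (2.46%), 71 higher (0.753%) and 161 lower (1.71%) of 9428 genes. Of the 119 genes that rose with OT cells 109 were tested there, 43 fell and none rose, with a median of -1.34 beside 0.01 over all genes. Those 43 are 39.4% of the 109 and 26.7% of the genes that fell in the time course. Of the 124 genes that fell with OT cells 94 were tested, 8 rose and none fell, with a median of 0.43, and these 8 are 11.3% of the genes that rose in the time course. The contrasts differ in what they compare, OT cells in the one and OVA in the other, and the genes that rose in the first were lower or not called in the second.

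Fscn1 was at 247 and 173 CPM with OVA particles and at 939 and 1036 CPM with CpG-only particles in the time course (log2 difference -2.21, adjusted p = 0.0028). Ltc4s was at 16.3 and 4.09 CPM against 47.3 and 23.9 CPM there. Nkg7 was at 214 and 132 CPM against 119 and 85.1 CPM, with 582 and 521 CPM in non-immunized mice. Ifng did not exceed 5.45 CPM in any of these libraries. Ncr1 was at 2.44 and 0 CPM against 0 and 0 CPM, with 0.815 and 0 CPM in non-immunized mice. Gzma was at 281 and 159 CPM against 81.1 and 80.6 CPM, with 35.9 and 12.6 CPM in non-immunized mice. All of these Ncr1 and Gzma values were below both libraries of OVA alone in the main experiment. Nkg7 with OVA alone was at 335 and 965 CPM, which overlapped the non-immunized mice. Why these levels differ between the experiments was not tested. Without 1 library at a time, 24 to 168 genes were called in that contrast.

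**Figure D4:**
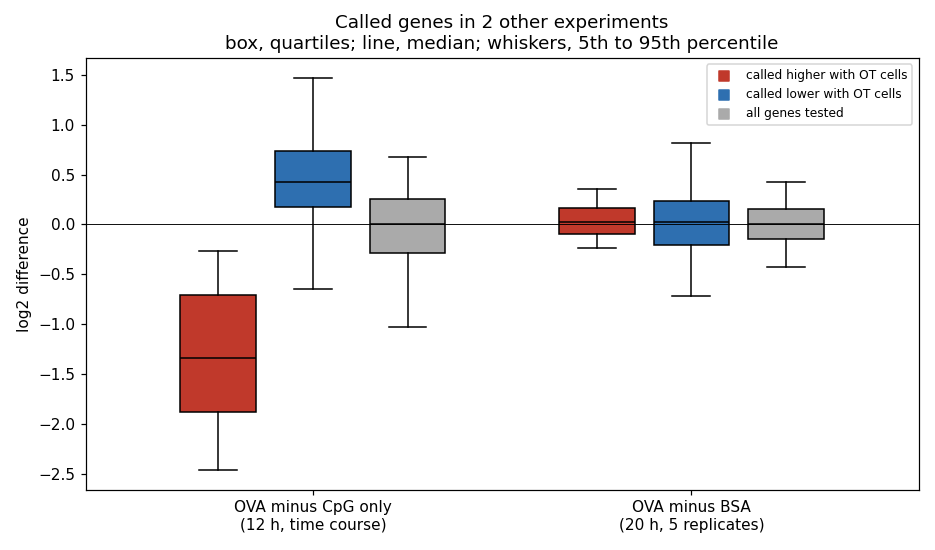
Log2 differences (y axis) of the genes that rose, the genes that fell and all genes tested at 12 h with OT cells, read in 2 experiments that share no library with them (x axis); boxes are quartiles, lines medians and whiskers the 5th to 95th percentile. In the time course the genes that rose lie below 0 (median -1.34); at 20 h both sets lie around 0 (medians 0.03 and 0.03).

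At 20 h, OVA against BSA particles with 5 libraries each gave no call by edgeR among 9159 genes (0.0%), 561 unadjusted p under 0.05 and none by DESeq2. Of the 119 genes that rose at 12 h 113 were tested, with a median of 0.03, and of the 124 that fell 52 were, also with a median of 0.03. Fscn1 ran from 5162 to 10208 CPM with OVA (median 6765) and from 3989 to 7122 CPM with BSA (median 4926), and the groups overlapped. Ltc4s ran from 194 to 420.1 CPM with OVA (median 288) and from 339 to 408 CPM with BSA (median 404). Nkg7 was at 2.55 to 18.1 CPM with OVA and 1.51 to 12.5 CPM with BSA. In that order, Ncr1 was at 0 to 1.57 CPM and 0 to 1.72 CPM, and Gzma at 0 to 62.9 CPM and 0 to 26.9 CPM.

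The authors' deposited table for the same 4 libraries at 12 h lists 479 genes with an adjusted p under 0.05, 250 higher and 229 lower with OT cells. It holds 103 of the 119 genes that rose here and 119 of the 124 that fell. In the authors' deposited table Ccr7 passed, with a log2 fold change of 1.39 and an adjusted p of 0.0333. For a comparison at 20 h that the header names as OVA against no OT, the authors' deposited table gives no gene with an adjusted p under 0.05 among 16614, 361 unadjusted p under 0.05 and a smallest adjusted p of 0.236. In it the genes that rose at 12 h had a median of 0.08 and those that fell of 0.04, beside 0.06 over all genes.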

How the data were processed

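RNA was measured by bulk sequencing of polyA RNA. Per the submitters' processing notes the tools were bcl2fastq, HISAT 0.1.6 and HOMER, on mm9. The authors deposited raw counts per gene, used here as given, and tables of log2 fold changes with p-values, which are quoted as theirs.

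Groups came from the sample labels. Counts were fitted with edgeR 4.0.16 in R 4.3.3 (quasi-likelihood test, TMM scaling, filterByExpr by group). All 8 libraries of the experiment entered 1 fit, and p was adjusted over all genes tested. The SE is the log2 difference over the square root of F. Alternatives were DESeq2 1.42.0, RLE factors, other filters, a replicate block, the 2 groups alone and each library left out in turn. The 4 columns of libraries with no sample were not used. Named genes were the 12 largest rises and 12 largest falls among calls with a mean of at least 10 CPM over the 4 libraries and no overlap between groups, up to 4 called members of each list by adjusted p (or the member of smallest p), and 12 genes always given: the DC genes Ccr7, Cd274, Il15, Cd80, Il12b, Cd83, Fscn1, Cd86, Ltc4s and Cd40, with Ifng and Nkg7. Cd8a, Serpinb9, Flt3 and Cd74 were added as checks of a list. The members and lists were chosen with earlier results of these data known. In simulated data for the main comparison with 9272 genes, 75% of 4-fold and 10% of 2-fold changes were recovered. These were 75 and 10 genes, and 10 genes left unchanged were called beside them. Replicate numbers were not taken as pairs: deviations of same-numbered libraries correlated at -0.06 between the compared groups, at 0.03 between OVA with OT cells and the knockout label and at 0.17 between OVA alone and the knockout label, and not every value was over 0.1. One gene that met the naming rule is not reported here.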

Additional observations from a re-analysis of the deposited data

Results flagged for a closer look

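Ctse differed by -4.26 on the log2 scale between OVA and BSA with OT cells (SE 0.40, adjusted p = 0.00422 by edgeR). This is the test of the difference between the antigens, and Ctse was the gene that passed it.

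At 20 h, 24 sets of 5 values, each of 1 gene in 1 group of 5 libraries, were tested for 1 library far from the others. Of these sets 3 held one. Chance gives about 1 in 20, but the sets share libraries and are not independent. Ifng was at 170.0 CPM in OVA library 4, with 0.638 to 36.9 CPM in the others. Ifng was at 49.8 CPM in BSA library 3, with 0.757 to 11.6 CPM in the others. Cd83 was at 699.7 CPM in BSA library 1, with 499 to 528 CPM in the others.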

How the results depend on the processing

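The 243 calls with OT cells became 917 with no filter on low counts, 696 with a replicate block, 486 with only the 2 groups fitted and 479 in the authors' deposited table, and ran from 8 to 732 with 1 library left out. DESeq2 gave 329. Every called gene kept its sign in each setting in which it had a value. For OVA against BSA with OT cells the counts were 12 (DESeq2), 227 (no filter), 2 (replicate block) and 4 (only the 2 groups), and 0 to 200 with 1 library left out. For BSA with OT cells against OVA alone they were 269, 827, 248 and 0 in that order, 152 at a mean of at least 1 CPM, and 48 to 327. There the replicate block turned the balance to 177 higher and 71 lower. For the knockout label against wild type they were 48, 303, 48 and 679, 1 at a mean of at least 1 CPM, and 0 to 0. At 20 h they were 2 with no filter and 0 to 4 with 1 library left out. In the time course they were 469 with no filter, 413 with only the 2 groups and 24 to 168. The causes were not tested. With 2 libraries a group, 2-fold changes were seldom called in simulated data, so a gene not called may still differ.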
